A study of Mus musculus with 20 samples.

Results

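The comparison described here sets the ascending aorta of mice on chow at week 6 against the same vessel at week 0, also on chow, by 3 arrays against 2. These 5 arrays were taken by their titles from the 20 arrays of the series, and all 5 lay on 1 slide. All 20 samples came from male mice whose genotype is labelled double knock out Apobtm2Sgy/Ldltm1Her, so week 6 and week 0 animals alike carry both alleles, which are known to leave mice with full-length apolipoprotein B and without the low density lipoprotein receptor. The labelled tissue is ascending aorta with atherosclerotic lesion at both times, the labels put 0W and 6W in the age field, and they do not say how old the mice were or whether each sample is a separate animal. P-values therefore measure the spread between these samples, which may be technical in part. Each sample of total RNA was labelled with Cy3 and hybridised to an Agilent mouse microRNA array with probes for 1881 mature microRNAs (miRNAs), of which 609 could be tested. A miRNA was tested where it was above background on every array of at least 1 of the 7 groups of the series.

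MiRNAs are short RNAs that lower the output of messenger RNAs paired to their seed, the bases at positions 2 to 8. Each hairpin precursor gives a 5p and a 3p arm, and relatives that share a seed share many predicted targets. In the artery wall miR-143 and miR-145 are typical of smooth muscle and miR-126 of endothelium, while miR-142 and miR-223 are typical of blood-derived cells, so a bulk aorta reads a mixture. In such bulk samples fewer cells of a type and less RNA per cell cannot be told apart.

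The mature sequences below belong to miRNAs described further on, and they are not a ranking by size of difference. Among those shown, miR-181c-5p did not pass the test used below. MiR-376c-3p, miR-3063-3p and miR-7212-3p passed it and are not shown. Their log2 differences, week 6 minus week 0, were 5.39, 5.23 and 5.04, and they were not above background at week 0. Capitals mark the seed, and letters are from RefSeq, assembly GRCm38.p6. Members of the miR-181 family share 1 seed, miR-17-5p shares one with miR-20b-5p, and miR-18a-5p shares one with miR-18b-5p.
miR-128-3p: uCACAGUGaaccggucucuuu
miR-181a-5p: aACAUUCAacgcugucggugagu
miR-181b-5p: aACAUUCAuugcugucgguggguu
miR-181d-5p: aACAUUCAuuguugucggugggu
miR-181c-5p: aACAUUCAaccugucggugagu
miR-17-5p: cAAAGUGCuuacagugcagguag
miR-20b-5p: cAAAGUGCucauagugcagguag
miR-18a-5p: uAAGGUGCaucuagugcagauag
miR-18b-5p: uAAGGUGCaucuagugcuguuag
miR-19a-3p: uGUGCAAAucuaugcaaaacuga
miR-363-3p: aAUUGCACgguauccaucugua
miR-205-5p: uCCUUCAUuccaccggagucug

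Another set shares no seed. These miRNAs are shown because their sequence holds GUGUGU, in capitals, the 6 bases that pair with ACACAC in a probe. They include the muscle miRNA miR-206-3p and miR-294-3p, a miRNA of early embryos.
miR-206-3p: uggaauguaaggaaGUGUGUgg
miR-672-5p: ugagguugguguacuGUGUGUga
miR-6348: ucagccuuuauaagGUGUGUGU
miR-32-3p: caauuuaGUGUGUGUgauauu
miR-466j: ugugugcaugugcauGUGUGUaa
miR-294-3p: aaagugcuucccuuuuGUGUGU
miR-539-5p: ggagaaauuauccuugGUGUGU
miR-5709-3p: aaagucuuaaggGUGUGUauug
For 3 further miRNAs the longest array probe is shown instead, as given in the deposited files, with ACACAC in capitals.
miR-669k-5p: gcacacaactatACACAC
miR-466h-5p: tACACACaagcacatgcac
miR-468-3p: cagACACACgcacatca

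Facts of the arrays bear on every value below. Week 6 chow replicates 1 and 2 were nearly identical, with an SD of their log2 differences of 0.281, against 0.656 and 0.721 between replicate 3 and these 2. The median of that SD was 0.953 over the 17 pairs of arrays of 1 group on 1 slide. They still differed by more than the noise between spots and were kept as separate samples, and results with the 2 averaged to 1 array are given beside those that follow. The week 0 pair had an SD of 0.748. The number of miRNAs above background was 489, 595 and 518 on the week 6 arrays and 425 and 412 on the week 0 arrays. Array number limits the precision, with 3 arrays against 2.

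At week 6 more miRNAs were higher than lower than at week 0. Of 609 tested, 123 were higher (20.2%) and 1, miR-28c, was lower (0.164%), together 20.4%, by limma on all 20 arrays with Benjamini-Hochberg adjustment at 0.05. The median difference over all 609 was 0.58 on the log2 scale, so a value near 0 lies below the general shift. With the near-identical arrays averaged, 32 of the 123 were still past the threshold and miR-28c was not, and with only the 5 arrays in the fit 206 were higher (33.8%) and 24 lower (3.94%). The split depends on the scaling of the arrays: 28 were higher and 60 lower under the 75th percentile over all miRNAs, 15 and 15 under quantile normalization, and 30 and 53 when arrays were centred on the median. Folds and bounds given below are those of the main scaling, and these 3 rescalings lower most of them. Leaving out week 0 replicate 1 left 8 higher, the fewest of the 5 fits without 1 array. The 123 kept a positive difference under each of 5 other scalings of the arrays. Their share was 20.9% of the 282 miRNAs at a mean level of 3 to 5 on the log2 scale, 25% at 5 to 7 and 21.3% at 7 to 9, and it dropped above a level of 9, to 2.04% of the 49 at 9 to 11 and 0 of the 15 above that. The median difference also varied with level. It was 0.57 at 3 to 5, 0.94 at 5 to 7, 0.33 at 7 to 9, -0.21 at 9 to 11 and -0.35 above 11. Of the 123, 63 were not well above background on either week 0 array and 30 were well above it on all 5 arrays, where 9.09% of 330 tested were higher. MiR-28c was 3.15, 3.49 and 3.09 in week 6 aortas, against 4.29 and 4.40 in week 0 aortas, a difference of -1.10 ± 0.36 (adjusted p = 0.0379) whose sign turned with normexp background correction.

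**Figure D1:**
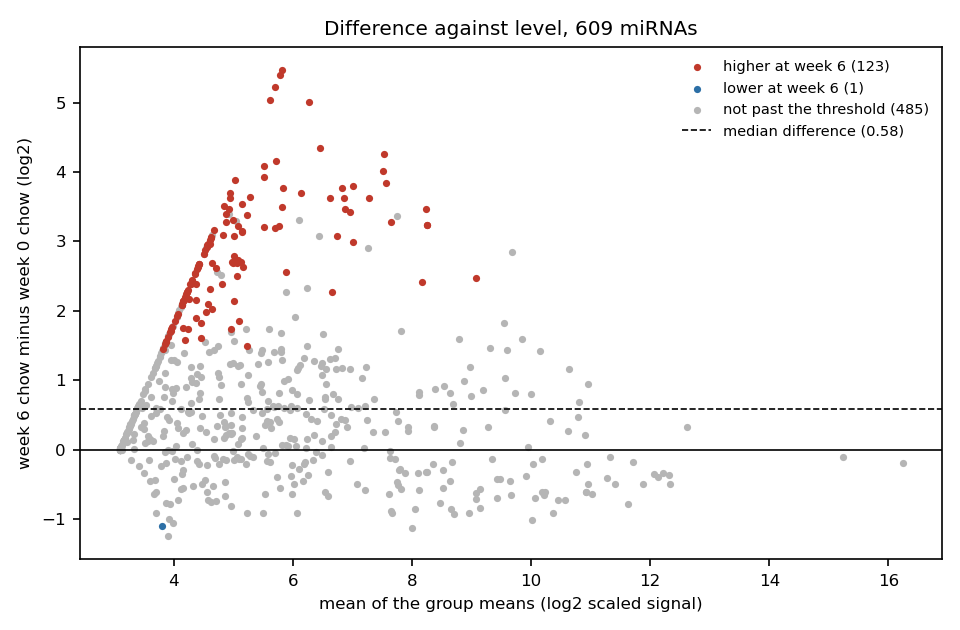
Difference between the week 6 chow and week 0 chow means (vertical axis, log2) against the mean of both means (horizontal axis, log2 scaled signal), 1 point for each of 609 miRNAs. The 123 higher miRNAs (red) lie almost entirely below a level of 9, and the dashed line marks the median difference of 0.58.

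The miRNA with the strongest evidence among those above background at both times was miR-128-3p, which in mouse is known from neurons and haematopoietic cells and from targets in cholesterol handling. Its level was 9.62, 9.79 and 9.06 on the log2 scale in week 6 aortas, against 5.59 and 5.70 in week 0 aortas. The groups did not overlap, and all 3 week 6 arrays stood more than 3 log2 units above both week 0 arrays. The difference was 3.85 ± 0.59 (SE), a 14.4-fold rise (adjusted p = 0.000606, and 0.00531 with the near-identical arrays averaged). Its probes map to chr1:130098982-130099001 and chr9:112021188-112021207 in build mm9, hairpins that lie within the genes R3hdm1 and Arpp21 in the RefSeq annotation. It was past the threshold in all 5 fits that left out 1 of the 5 arrays, with differences of 3.70 to 4.06. It also passed under the 3 rescalings, with differences of 2.40 to 2.89 (adjusted p = 0.0221 to 0.0412).

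Of 4 miR-181 family members 3 rose under the main scaling, and the calls depended on it: of the 4, 0 passed by limma under the 75th percentile over all miRNAs and 1, miR-181b-5p, under quantile normalization and under centring on the median. MiR-181a and miR-181b are known from lymphocyte development and, in mouse endothelium, from control of NF-kB signalling. MiR-181b-5p was 8.76, 8.68 and 8.09 in week 6 aortas, against 5.23 and 5.80 in week 0 aortas, a 7.96-fold rise (log2 difference 2.99 ± 0.46, adjusted p = 0.000606, and 0.00531 averaged). Under the 75th percentile over all miRNAs its difference was 1.54 (adjusted p = 0.072). MiR-181a-5p was 10.11, 10.05 and 9.44 at week 6, against 6.24 and 7.03 at week 0, a rise of 9.42-fold (adjusted p = 0.0136, and 0.0512 averaged). Its differences under the 3 rescalings were 1.78 to 2.46 (adjusted p = 0.0673 to 0.160). All 3 week 6 arrays exceeded both week 0 arrays for each of these 2 members.

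MiR-181d-5p, from a separate locus on chromosome 8, had 6.18, 6.16 and 5.76 in week 6 aortas and 3.89 and 4.45 in week 0 aortas. That is a 3.63-fold rise, with an adjusted p of 0.0117, and 0.0488 averaged. Under the 3 rescalings the difference was only 0.41 to 0.62 (adjusted p = 0.331 to 0.615). The fourth member, miR-181c-5p, had 6.30, 6.39 and 5.82 at week 6, against 4.41 and 5.13 at week 0. Its groups did not overlap either, but its 2.63-fold difference missed the threshold (adjusted p = 0.0878) and its sign turned under the 75th percentile over all miRNAs. These mature sequences differ at few bases beyond the seed, and relatives can hybridise to one another's probes.

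The opposite arm of the first miR-181a hairpin gave the smallest p of the comparison. MiR-181a-1-3p, whose probes lie at chr1:139863090-139863106 (mm9), was 6.93, 7.05 and 6.29 in week 6 aortas. On both week 0 arrays, at 3.09 and 3.16, it was not well above background. A floor of 3.09 was set for all dim values, so its rise is given as a bound of at least 7.76-fold under the main scaling (adjusted p = 1.31e-05, and 0.000202 averaged). It passed under the 3 rescalings too, with smaller differences of 2.56 to 2.73 that lie below this bound. With normexp background correction it did not pass (log2 difference 1.57, adjusted p = 0.156). MiR-181a-5p and miR-181b-5p map to the same stretch of chromosome 1, and all 3 tested products of that cluster rose under the main scaling. They also map to a second copy on chromosome 2, which the arrays cannot separate from the first.

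The miR-17-92 group, known for driving proliferation and lymphocyte survival, comes from 3 paralogous clusters on mouse chromosomes 14, X and 5. All 12 tested members were more abundant on each week 6 array than on either week 0 array, where 50.6% of all 609 miRNAs showed this order. Of the 12, 6 passed the test, and the median log2 difference was 1.60, against 0.58 over all miRNAs. The sign of the median held under each of 5 other scalings, but under the 75th percentile over all miRNAs 4 of the 12 turned negative and the median was 0.15. Of the 12, 1 passed under that scaling, 0 by limma under quantile normalization and 2 under centring on the median, so most calls of the group rest on the main scaling.

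Within the chromosome 14 cluster, miR-18a-5p was 6.10, 6.44 and 5.71 in week 6 aortas, against 3.53 and 4.36 in week 0 aortas (4.41-fold, adjusted p = 0.0094, and 0.0476 averaged). Its differences under the 3 rescalings were 0.69 to 0.90 (adjusted p = 0.178 to 0.368). MiR-19a-3p was 7.85, 8.12 and 7.38 at week 6, against 5.41 and 5.62 at week 0, a 4.85-fold rise (adjusted p = 0.0307, and 0.0831 averaged) that passed under none of the 3 rescalings (adjusted p = 0.303 to 0.476). MiR-17-5p, which names the cluster, rose 3.05-fold with an adjusted p of 0.0247, and likewise passed under no rescaling (adjusted p = 0.664 to 0.907). Its probes also map to the X chromosome cluster, at chrX:50095694-50095706 (mm9), so its signal cannot be assigned to either cluster alone. In each of these miRNAs week 6 replicate 3 was the lowest of the 3 and still above both week 0 arrays.

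From the X chromosome cluster, miR-363-3p had the firmest result. It was 5.42, 5.61 and 4.98 in week 6 aortas and was not well above background in week 0 aortas, a rise of at least 2.89-fold (adjusted p = 0.000606, and 0.00531 averaged). It missed the threshold under quantile normalization (adjusted p = 0.0587) and passed under the other 2 rescalings. MiR-20b-5p was 9.51, 9.63 and 8.98 at week 6, against 6.41 and 7.51 at week 0, a 5.31-fold rise (adjusted p = 0.0328, and 0.0875 averaged) that passed under no rescaling (adjusted p = 0.153 to 0.435). MiR-18b-5p was 5.17, 4.87 and 4.36 at week 6 and at the floor at week 0 (adjusted p = 0.0109).

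The 3 members of the chromosome 5 cluster, miR-106b-5p, miR-93-5p and miR-25-3p, had log2 differences of 0.91, 0.78 and 0.82, close to the general shift. None of the 3 passed the test (adjusted p = 0.411, 0.338 and 0.358), and each turned negative under the 75th percentile over all miRNAs. MiR-20a-5p, miR-19b-3p and miR-92a-3p, also encoded in the chromosome 14 cluster, missed it too, with log2 differences of 1.59, 1.47 and 1.19, and for miR-92a-3p the sign turned under that scaling. Probes for miR-19b-3p and miR-92a-3p map to the X chromosome cluster as well.

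**Figure D2:**
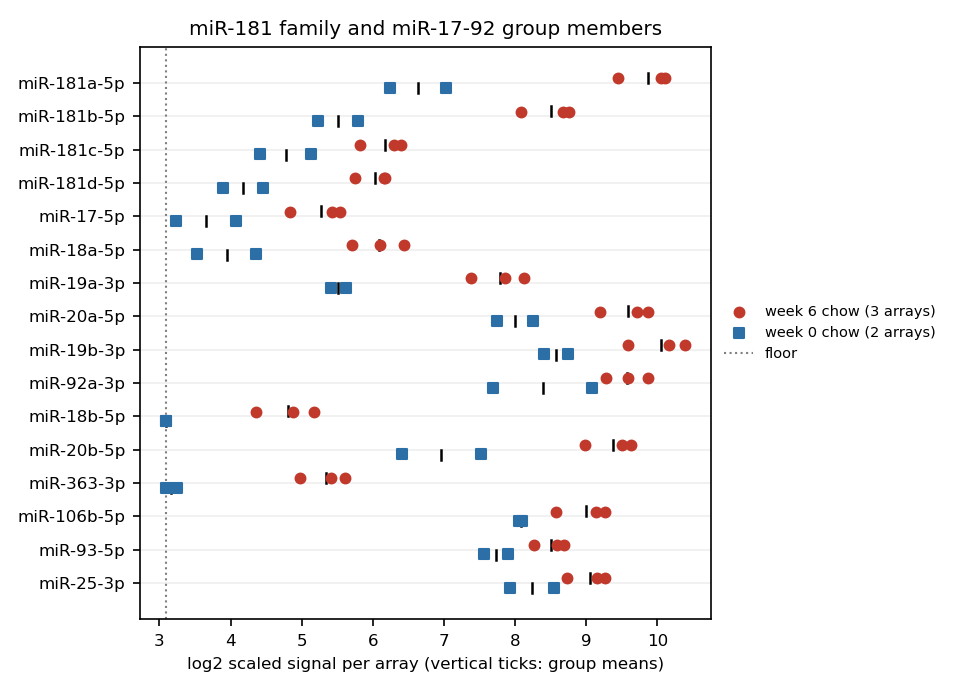
Log2 scaled signal (horizontal axis) of 4 miR-181 family members and 12 members of the miR-17-92 group on each week 6 chow array (red circles, upper) and week 0 chow array (blue squares, lower), with black ticks at the group means and a dotted line at the floor. In every row the week 6 points lie to the right of the week 0 points.

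Other miRNAs of blood-derived cells did not move as 1 group. MiR-142a-3p, found across blood cell types, was 11.17, 11.35 and 10.79 in week 6 aortas, against 7.26 and 9.25 in week 0 aortas, a 7.19-fold difference that missed the threshold (adjusted p = 0.0888). MiR-150-5p, abundant in mature lymphocytes, was 8.24, 8.30 and 7.75 at week 6, against 7.01 and 9.84 at week 0. MiR-155-5p, induced by inflammatory signals, was 6.62, 6.72 and 6.28 at week 6, against 4.46 and 8.39 at week 0. For the last 2 the week 0 arrays lay on either side of all week 6 arrays.

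The myeloid miRNA miR-223-3p differed by -0.34 (adjusted p = 0.828) under the main scaling and was below 0 under all others. Of the macrophage and myeloid list 0 of 6 tested members passed. In the fit of 5 arrays 2 of 6 were higher, a share near the 33.8% of all miRNAs there. The summed level of the list was 11.71, 11.88 and 11.31 on the log2 scale at week 6, against 9.44 and 11.05 at week 0. For the lymphocyte list, of which 3 of 6 passed (all miR-181), the sums were between 10.42 and 11.03 at week 6, against 8.23 and 10.54 at week 0. In both lists week 0 replicate 1 stood lowest, and the part of blood cell content in the miR-181 and miR-17-92 differences was not tested.

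The longest list was that of miR-297, miR-466, miR-467 and miR-669, repeat-rich families expanded in rodents, many of them in an intron of Sfmbt2. All 42 tested members had positive differences, with a median of 1.53, though only 26 stayed positive under the 75th percentile over all miRNAs. Of the 42, 17 rose. The calls split by arm. Of 17 members named as 5p arms 15 rose, with a median difference of 3.22. Of 19 named as 3p arms 0 rose by limma, with 0 at an unadjusted p under 0.05 and a median difference of 1.03, which was -0.19 when the 75th percentile was taken over all miRNAs.

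Hairpins of which both arms were tested show the split directly. MiR-466h-5p was 9.29, 8.64 and 8.79 in week 6 aortas, against 4.25 and 5.97 in week 0 aortas, a 13.9-fold rise (adjusted p = 0.0307, and 0.0797 averaged). It passed in 0 of 5 fits without 1 array, with log2 differences of 2.94 to 4.65, and under none of the 3 rescalings (2.34 to 2.72, adjusted p = 0.119 to 0.128). MiR-466h-3p was 7.76, 7.30 and 7.98 at week 6, against 7.79 and 5.50 at week 0 (adjusted p = 0.657). The 5p arm separated the groups and the 3p arm did not. At week 0 replicate 2 was the higher array for the 5p arm and replicate 1 for the 3p arm. MiR-669e-5p likewise rose 12.3-fold, to 9.45, 8.78 and 9.05 at week 6, against 4.45 and 6.49 at week 0 (adjusted p = 0.0416), and miR-669e-3p had an adjusted p of 0.463. The miR-669e-5p call too was lost in all 5 fits without 1 array and under the 3 rescalings (adjusted p = 0.140 to 0.157).

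Rises were also frequent outside these families among miRNAs whose probes hold the short repeat shown above. Within the families 11 of the 17 tested 5p arms have the repeat in a probe, among them miR-466i-5p and miR-466m-5p, which did not rise. The repeat did not mark all 5p arms that rose. MiR-669f-5p, miR-467c-5p and miR-669b-5p, whose probes lack it, rose by limma too (adjusted p = 0.0207, 0.0158 and 0.0452). The repeat was looked for after the values were seen, in the probes as printed in the files and as its reverse complement, so the counts are a description with no test. A probe with ACACAC occurred for 29 of the 1881 miRNAs on the array (1.54%) and for 26 of the 609 tested (4.27%). Of these 26, 21 rose (80.8%), against 20.2% of all tested, and all 26 had positive differences with a median of 3.32, of which 24 stayed positive under the 75th percentile over all miRNAs. Of the 21, 6 passed under that scaling, 5 under quantile normalization and 7 under centring on the median, and 3 in all 5 fits without 1 array. The reverse complement, GTGTGT, occurred in probes for 30 miRNAs on the array (1.59%) and for 25 tested, with no overlap between the 2 sets. Of these 25, 0 rose by limma, 0 had an unadjusted p under 0.05, and the median difference was 1.04. The 19 tested 3p arms of the rodent families made up most of this second set, and the 558 tested miRNAs with neither repeat had 102 that rose and a median of 0.49.

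Outside the rodent families the first repeat was in probes for 13 tested miRNAs, of which 10 rose. MiR-206-3p, made in skeletal muscle, was 8.08, 7.74 and 10.50 in week 6 aortas, against 3.09 and 4.43 in week 0 aortas (log2 difference 5.01 ± 1.34, adjusted p = 0.0207, and 0.0476 averaged). Only 1 of 2 week 0 arrays measured it above background. It passed in 1 of 5 fits without 1 array, with differences of 4.15 to 5.68, and missed under the 3 rescalings (adjusted p = 0.0511 to 0.0685). MiR-294-3p was 7.77, 7.40 and 7.25 at week 6, against 3.09 and 3.99 at week 0, a log2 difference of 3.93 ± 0.86 (adjusted p = 0.0094, and 0.0384 averaged), with 1 of 2 week 0 arrays above background. It missed under quantile normalization (adjusted p = 0.0587). For both, the lowest week 6 array was over 3 log2 units above the higher week 0 array. MiR-672-5p, encoded within Nexmif on the X chromosome, was 9.92, 9.12 and 9.55 at week 6, against 4.67 and 6.35 at week 0 (16.2-fold, adjusted p = 0.0396, and 0.0865 averaged), and passed under no rescaling and in 0 of 5 fits without 1 array.

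The week 0 arrays differed from each other along the same line. Week 0 replicate 2 exceeded replicate 1 for 21 of the 26 miRNAs with the first repeat, and the other 5 tied at the floor. For the reverse complement, replicate 1 exceeded replicate 2 for 21 of 25, with the other 4 tied. The median level of the first set was 9.19, 8.58 and 8.92 at week 6, against 4.09 and 5.96 at week 0, and that of the second was 5.13, 5.02 and 5.92 at week 6, against 5.33 and 3.09 at week 0. The part of the repeat itself in these differences was not tested.

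**Figure D3:**
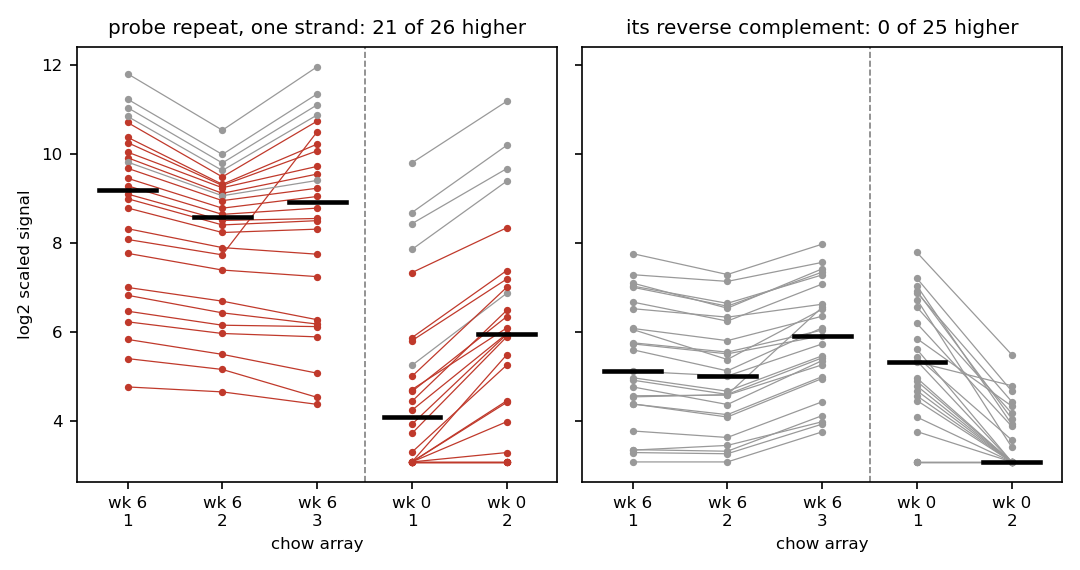
Log2 scaled signal (vertical axis) on each chow array (horizontal axis, week 6 left of the dashed line, week 0 right of it) of 26 tested miRNAs whose probe holds one repeat (left panel) and 25 whose probe holds its reverse complement (right panel). Each thin line joins the values of 1 miRNA within a group, red where it passed the threshold, and black bars are medians; 21 of 26 passed on the left and 0 of 25 on the right.

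Of the first set, 5 miRNAs did not pass. MiR-466i-5p was 11.80, 10.53 and 11.96 in week 6 aortas, against 9.80 and 11.18 in week 0 aortas, so its groups overlapped (adjusted p = 0.338) and its sign turned under the 75th percentile over all miRNAs. MiR-574-5p, miR-1187, miR-3082-5p and miR-466m-5p had differences of 1.42, 1.82, 1.59 and 3.36, with adjusted p-values of 0.119, 0.0581, 0.103 and 0.0648, and for miR-574-5p the sign turned under that scaling.

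A set of 14 miRNAs rose under the main scaling and also passed under quantile normalization, the 75th percentile over all miRNAs and centring on the median, and all 14 still passed with the near-identical arrays averaged. Besides miR-128-3p and miR-181a-1-3p, the set held miR-3097-5p, miR-670-5p, miR-539-5p, miR-6409, miR-3064-5p, miR-5709-3p, miR-7051-3p, miR-3067-5p, miR-466p-5p, miR-92b-5p, miR-466a-5p and miR-465b-5p. Little is established about the roles of most of them. Of the 14, 12 were not well above background on either week 0 array, and 5 have a probe with the first repeat. With normexp background correction all 14 stayed positive, and miR-128-3p passed by limma (adjusted p = 0.0022). MiR-181a-1-3p, miR-3097-5p, miR-670-5p, miR-539-5p, miR-6409, miR-3064-5p and miR-5709-3p did not pass there (adjusted p = 0.0835 to 0.276). Without scaling between arrays only 1 of the 609 miRNAs passed, miR-181a-1-3p (adjusted p = 0.0206).

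MiR-3064-5p, encoded within the RNA helicase gene Ddx5, was 6.31, 6.01 and 5.83 in week 6 aortas and at the floor on both week 0 arrays, a rise of at least 4.75-fold (adjusted p = 0.000966). MiR-539-5p, from the imprinted Dlk1-Dio3 region of chromosome 12, was 6.47, 6.16 and 6.13 at week 6 and at the floor at week 0, a rise of at least 5.46-fold (adjusted p = 0.00389). Of 17 tested miRNAs on the list for that region 2 rose, miR-539-5p and miR-376c-3p, and the median difference was 0.05, which turned negative under the 75th percentile over all miRNAs. The list is not complete. By probe position, 18 tested miRNAs lay in its span and 4 rose, a share near the 20.2% of all tested miRNAs that rose. The other 2 were miR-485-3p (adjusted p = 0.0218) and miR-1188-3p (adjusted p = 0.0434), named here after their values were seen. MiR-670-5p was 6.91, 6.62 and 6.41 at week 6, against 3.09 and 3.60 at week 0, where 1 of 2 arrays was above background (log2 difference 3.30, adjusted p = 0.00385).

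**Figure D4:**
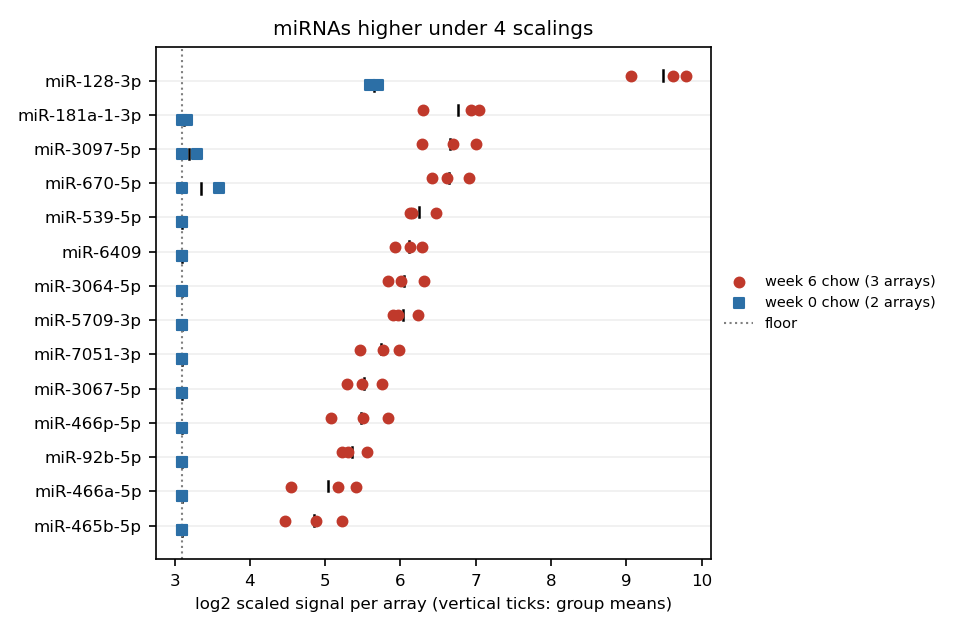
Log2 scaled signal (horizontal axis) of the 14 miRNAs that passed the test under the main scaling and 3 others, on each week 6 chow array (red circles, upper) and week 0 chow array (blue squares, lower), with black ticks at the group means and a dotted line at the floor of 3.09. All week 0 points but those of miR-128-3p lie at or near the floor.

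Both arms were tested for 80 hairpins, and in 32 of the 33 with a call only 1 arm rose. The exception was miR-5620, with differences of 2.03 for the 5p and 1.75 for the 3p arm. In the other 47 hairpins neither arm rose. Since 20.2% of all tested miRNAs rose, single calls are common at that share, and these counts alone do not show arm-specific change. MiR-214-5p rose to 6.20, 5.83 and 5.26 in week 6 aortas, against 3.09 and 3.79 in week 0 aortas, of which 1 of 2 measured it above background (adjusted p = 0.0141, 0.0559 averaged, and 0.106 to 0.153 under the 3 rescalings). Its partner miR-214-3p, a fibroblast miRNA from within Dnm3, was 5.70, 5.61 and 6.59 at week 6, against 6.10 and 6.40 at week 0, and the groups overlapped. Let-7d-3p was 6.23, 6.30 and 5.75 at week 6, against 3.19 and 3.09 at week 0, at or near the floor (adjusted p = 0.0243, and 0.0953 to 0.129 under the 3 rescalings), while the tumour-suppressive let-7d-5p differed by -0.49 (adjusted p = 0.615). The difference between arms was itself not tested.

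Members of the epithelial and striated muscle lists passed no more often than the 20.2% over all miRNAs. Of 9 tested miRNAs of epithelium, 8 had positive differences, with a median of 2.82 and a positive median under all 5 other scalings, but only miR-205-5p passed. It was 7.69, 7.72 and 10.27 in week 6 aortas and not above background in week 0 aortas, with week 6 replicate 3 well above the other two. The rise was at least 27.0-fold (adjusted p = 0.0307, 0.0633 averaged, and 0.0515 to 0.0656 under the 3 rescalings), and it passed in 0 of 5 fits without 1 array. The miR-200 relatives, which hold epithelial cells together by repressing Zeb1 and Zeb2, had positive differences that did not pass. MiR-200c-3p, for example, was 6.17, 6.27 and 7.44 at week 6, against 3.09 and 3.37 at week 0 (adjusted p = 0.0946). In the fit of 5 arrays 7 of the 9 passed, also with the near-identical arrays averaged, where 24.1% of all miRNAs were higher. The summed level of the list was 9.44, 9.57 and 10.98 at week 6, against 7.52 and 7.33 at week 0, while miR-183-5p, miR-184-3p and miR-375-3p were above background on none of the 5 arrays.

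On the striated muscle list only miR-206-3p passed, 1 of 5 tested. Off the list, miR-499-3p, encoded in the myosin gene Myh7b and named after its values were seen, rose to 5.98, 5.73 and 4.98 in week 6 aortas, against 3.09 and 3.27, not well above background, in week 0 aortas (at least 3.39-fold, adjusted p = 0.0094, and 0.0529 to 0.0775 under the 3 rescalings). MiR-133a-3p was 8.54, 8.67 and 10.90 in week 6 aortas, against 6.79 and 9.98 in week 0 aortas, and miR-1a-3p was 9.52, 9.76 and 9.60, against 7.29 and 10.25. Groups overlapped for both. The list's sums were 11.06, 11.16 and 12.88 at week 6, against 9.20 and 11.97 at week 0, highest on week 6 replicate 3 as for miR-205-5p and miR-206-3p. MiR-208a-3p and miR-208b-3p, made in heart muscle, and the other arm, miR-499-5p, were above background on no array. The part of epithelial or muscle tissue in these results was not tested.

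The lists typical of the artery wall had median differences below the general shift, at -0.62 for smooth muscle and -0.27 for endothelium. Bright miRNAs as a whole lay below that shift too, with a median of -0.21 at levels of 9 to 11 and -0.35 above 11. MiR-143-3p and miR-126a-3p are that bright, while miR-145a-5p lay at 7 to 9, where the median was 0.33. A difference of the lists from equally bright miRNAs was not tested. No member of the smooth muscle (3 tested) or endothelial (6 tested) list passed by limma under the main scaling. Rescaling changed this: under the 75th percentile over all miRNAs 2 of 3 smooth muscle and 1 of 6 endothelial miRNAs were lower. In that scaling 88 of all 609 miRNAs passed in either direction, most of them lower. The smooth muscle miRNA miR-145a-5p was 8.24, 8.17 and 8.25 in week 6 aortas, against 9.18 and 8.98 in week 0 aortas, a difference of -0.86 ± 0.38 (adjusted p = 0.138). Every week 6 array lay below both week 0 arrays, an order shown by 12.3% of all miRNAs. It was called lower under each of the 3 rescalings, with differences of -2.31, -1.25 and -2.10 (adjusted p = 0.0205, 0.0476 and 0.00957). In the fit of 5 arrays it passed (adjusted p = 0.0078). It still did so there with the near-identical arrays averaged, as 1.48% of all miRNAs did in that direction (adjusted p = 0.0461). MiR-143-3p, from the same cluster, was 10.02, 10.16 and 9.59 at week 6, against 10.81 and 10.27 at week 0 (adjusted p = 0.609), and was lower under the 75th percentile over all miRNAs (adjusted p = 0.0384). The endothelial miR-126a-3p was 11.34, 11.51 and 10.85 at week 6, against 12.36 and 11.68 at week 0 (adjusted p = 0.538).

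Families abundant in the wall had negative differences. Over all tested miRNAs the median was 0.33 at levels of 7 to 9, -0.21 at 9 to 11 and -0.35 above 11. Of the examples below, miR-100-5p and miR-10a-5p lay at 7 to 9 and miR-23b-3p at 9 to 11. All 5 tested members of the miR-99, miR-100 and miR-125 family were lower on every week 6 array than on either week 0 array, with a median difference of -0.71, and all 5 stayed negative under each of the 5 other scalings. MiR-100-5p, for instance, was 7.61, 7.82 and 7.46 in week 6 aortas, against 8.48 and 8.50 in week 0 aortas (adjusted p = 0.228). None of the 5 passed under the main scaling, and 3 did in the fit of 5 arrays, where 3.94% of all miRNAs were lower. Both under the 75th percentile over all miRNAs and under centring on the median 4 were lower. The 6 tested members of the miR-23, miR-27 and miR-24 clusters lay lower too, at a median of -0.61. None of the 6 had a positive difference under the main scaling, and none passed, against 5 lower under the 75th percentile over all miRNAs and 4 under centring on the median. Of all 609 tested miRNAs 88 and 83 passed under these rescalings in either direction, most of them lower. The median difference over all was -0.51 and -0.31 there. MiR-23b-3p was 9.83, 9.90 and 9.89 at week 6, against 10.49 and 10.50 at week 0 (adjusted p = 0.342, and 0.0118 in the fit of 5 arrays). The flow-responsive miR-10a-5p was 7.51, 7.66 and 7.11 at week 6, against 8.89 and 8.24 at week 0 (adjusted p = 0.149).

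**Figure D5:**
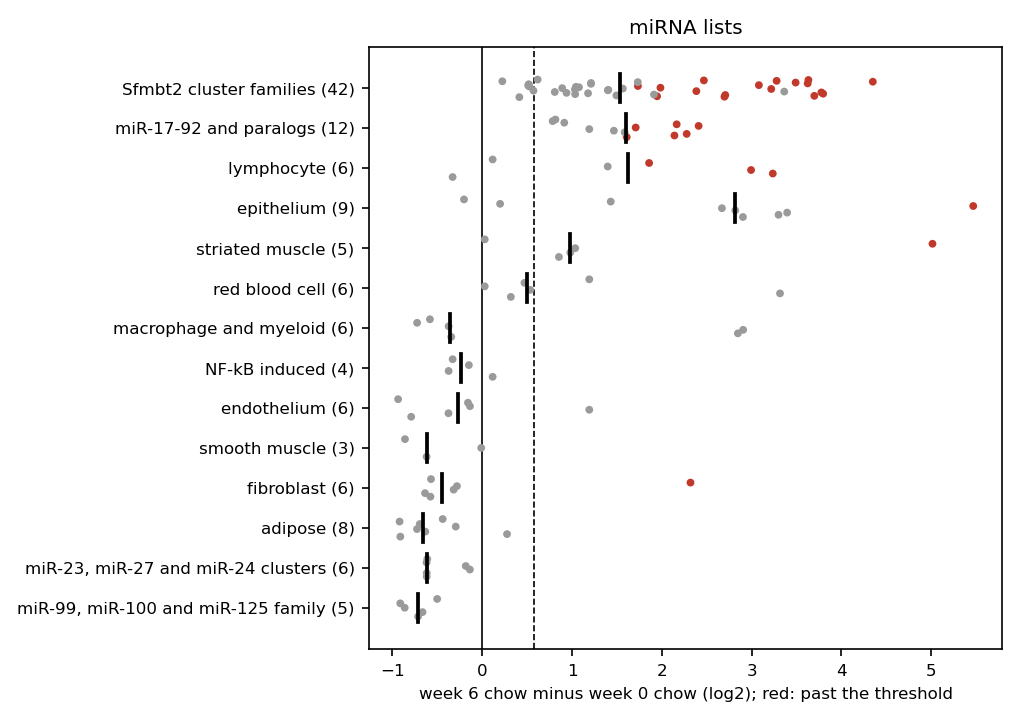
Difference between the week 6 chow and week 0 chow means (horizontal axis, log2) for the tested members of 14 lists (rows, number of members in brackets), red where a member passed the threshold, with a black bar at each list's median. The solid line marks 0 and the dashed line the median of all 609 miRNAs, 0.58.

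The remaining lists held few calls. Of 11 tested let-7 members, let-7j and let-7k rose, 5.65-fold and 9.32-fold (adjusted p = 0.0207 and 0.0109), neither of which passed under the 3 rescalings, and the list's median was -0.21, which was positive under quantile normalization. Let-7c-5p was 11.93, 11.94 and 12.54 in week 6 aortas, against 12.52 and 12.49 in week 0 aortas. Of 14 cholesterol and lipid regulators only miR-128-3p passed, and miR-33-5p, the intronic miRNA of Srebf2 that represses cholesterol export, was above background on none of the 5 arrays. Of 7 neuronal miRNAs miR-128-3p and miR-219a-5p rose, while miR-124-3p and miR-9-5p were above background on no array. For inflammation-linked miR-21a-5p the values were 10.70, 10.87 and 10.20 at week 6, against 10.36 and 11.47 at week 0, and for the red cell miRNA miR-451a they were 12.89, 13.04 and 12.42, against 12.80 and 12.12. Groups overlapped for both. The adipose, liver, miR-29, miR-30, miR-15 and miR-16, miR-322 and miR-503, p53 and GC-rich lists had 0 members that passed by limma under the main scaling. The miR-15 and miR-16 list holds only 5p arms. The opposite arms miR-15a-3p, miR-16-1-3p and miR-16-2-3p, named after their values were seen, rose, with differences of 2.79, 2.69 and 2.69 (adjusted p = 0.0209, 0.0207 and 0.00988) that passed under no rescaling. MiR-195a-3p, the opposite arm of another member, did not pass under the main scaling, with a difference of 2.27.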

How the data were processed

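Total RNA of 20 ascending aorta samples was hybridised to 1-colour arrays. Intensities were deposited as background-subtracted, spatially detrended signals with no scaling between arrays, per the file headers. Agilent Feature Extraction 11.5.1 made them, per the submitters' processing notes. The deposited value table equalled these intensities on 20 arrays.

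Spots without outlier flags were averaged per probe, then per miRNA. A miRNA counted as above background where at least 0.5 of the spots of a probe did. For scaling, signals were taken relative to the array's own 75th percentile among the 192 miRNAs above background on all 20 arrays, then raised to a common floor and log2-transformed. limma 3.58.1 in R 4.3.3 fitted 7 groups over 20 arrays (13 residual degrees of freedom) with Benjamini-Hochberg adjustment over 609 miRNAs. Code was tested on simulated data.

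A fold given as "at least" belongs to a miRNA that neither week 0 array measured well above background: the week 6 mean against the higher, per week 0 array, of the lowest well-detected signal and the miRNA's own.

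Named miRNAs were the 25 largest changes in each direction, the 15 brightest called, those called above background on all 5 arrays, those called under each of 3 other scalings, up to 6 per list by p, members of seed families with 3 or more calls, the 10 smallest p and a fixed panel. Arms of hairpins, repeat-bearing miRNAs and markers at the floor were added after their values were seen. The members and lists were chosen with earlier results of these data known. Alternatives covered scaling, background, filters, arrays left out, slide and replicate blocks.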

Additional observations from a re-analysis of the deposited data

Results flagged for a closer look

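For 18 of the miRNAs that rose between week 0 and week 6 on chow, the step from week 0 to week 6 differed between the diets. Week 0 is common to both steps, so their difference is week 6 high fat minus week 6 chow, and the steps share the week 0 arrays. Of the 609 tested miRNAs only these 18 passed between the diets, by limma with Benjamini-Hochberg adjustment. For each of the 18 the 3 high-fat arrays lay below the 3 chow arrays. This diet difference was tested under the main scaling only, and not with the near-identical chow arrays averaged. The chow arrays here are the same that chose the miRNAs, so this is not independent of their rise.

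MiR-128-3p was 4.79, 6.48 and 6.09 on high fat, against 9.62, 9.79 and 9.06 on chow, a log2 difference of -3.70 (adjusted p = 0.000271). MiR-181b-5p was 4.91, 6.07 and 6.53 on high fat, against 8.76, 8.68 and 8.09 on chow, a difference of -2.67 (adjusted p = 0.000522). Among their relatives the differences were -3.40 for miR-181a-1-3p, -3.07 for miR-181a-5p and -1.67 for miR-181d-5p. In the miR-17-92 group they were -2.24 for miR-363-3p and -1.85 for miR-18a-5p.

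In the rodent repeat families the differences were -2.38 for miR-466p-5p, -1.95 for miR-466a-5p, -1.74 for miR-467e-5p and -2.34 for miR-297c-5p. The others were -2.38 for miR-3064-5p, -1.49 for miR-7029-3p, -2.33 for miR-5709-3p, -2.68 for miR-3097-5p, -1.82 for miR-6902-3p, -2.64 for miR-670-5p and -2.37 for miR-539-5p.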

How the results depend on the processing

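With 123 miRNAs higher and 1 lower under the main settings, the counts depended most on scaling, filter and the arrays in the fit. The 75th percentile over all miRNAs gave 28 higher and 60 lower with a median difference of -0.51, quantile normalization 15 and 15 with -0.17, and centring on the median 30 and 53 with -0.31. Without scaling there were 1 and 0, with normexp 35 and 0, and with a floor lower by 1 117 and 0. Of miRNAs above background on all 5 arrays 8 and 0 passed, on all 20 arrays 0 and 0 by limma (12 at an unadjusted p under 0.05), and with no filter 59 and 1. Ignoring outlier flags gave 125 and 2. Only slide 1 gave 28 and 0, only the 5 arrays 206 and 24, averaging the near-identical arrays 32 and 0, and array weights 238 and 30. Leaving out 1 array gave 8 to 62 higher and 0 lower. Chosen after seeing the data, the 5 arrays with the near-identical pair averaged gave 147 and 9, and quantile normalization among miRNAs above background on all 5 arrays 0 and 0 by limma (75 at an unadjusted p under 0.05), with a median of -0.50. MiR-28c was 0.17 with normexp. The cause of these changes was not tested.

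The replicate block gave 141 higher and 1 lower. Same-numbered arrays did not deviate together (r = -0.089 and 0.016). This check cannot decide whether the numbers pair the samples. The deviations of 2 week 0 arrays mirror each other, and week 6 replicates 1 and 2 were nearly identical. Of the 123, 8 passed in all 5 fits without 1 array, and all 123 stayed positive there. Dim signal at week 0 limits fold sizes.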
